A study of Homo sapiens with 8 samples.

Results

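The genes described here are 52 factors of nucleolar ribosome biogenesis, chosen by name as known components of the pathway. No measured value enters that rule, but the list was drawn up with earlier results of these data known. All 52 were found among 63241 genes in the NCI-H716 tables and 27 of them among 28043 genes in the HCT116 table, and every one found had enough reads to be tested. The other 25 are not listed in the HCT116 table, which holds chromosomes 1 to 8 and the start of the next one, so their values come from NCI-H716 alone.

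Ribosomes are built in the nucleolus. RNA polymerase I copies the ribosomal DNA into one long precursor RNA, small nucleolar ribonucleoproteins (snoRNPs) guide its chemical modification, and a large assembly called the small subunit processome folds and cuts its first part. The 2 subunits, 40S and 60S, then mature along separate routes before export to the cytoplasm. Growing tumour cells make many ribosomes, and MYC, a transcription factor that binds the E-box letters CACGTG, is known to drive many of these genes.

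The study asked how Z325 (ZINC000101867325), a small molecule picked by docking to fibroblast growth factor receptors, alters colorectal cancer cells. HCT116 is an adherent colon carcinoma line, and NCI-H716 is a line with endocrine features that grows largely in suspension. Each line had 2 control libraries and 2 libraries of Z325-treated cells, which the sample names call Test, and about 100 cells entered each reaction. The labels give no dose, exposure time or vehicle. The study's text sets a working concentration for its later experiments and names DMSO as the solvent, without tying either to these libraries, so no dose is given here. They also do not say that the 2 libraries of a group came from separate cultures, although the study's text calls them biological duplicates, so the p-values measure the spread between these libraries. Both lines are established cultures, and no gene was deleted or introduced.

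Library totals ran from 10210243 to 19738848 estimated counts in NCI-H716 and from 3434620 to 13396225 counts over the listed genes in HCT116, where Z325 replicate 2 was the shallowest. Replicates of a group differed by more than counting noise, with a chi-square per degree of freedom between 15.6 and 38.5, so none was the same library listed again. EPCAM, an epithelial marker, was at 10 FPKM or more in both lines. In NCI-H716 the endocrine markers CHGA, CHGB and SCG3 and the epithelial markers KRT8 and KRT18 reached that level too. The endocrine marker NEUROD1 and the epithelial markers CDH1 and KRT20 stayed under 1 FPKM there. NEUROD1 and the epithelial marker VIL1 were under 1 FPKM in HCT116. Of 7 fibroblast markers, FAP and COL3A1 passed 10 FPKM in NCI-H716 and the list summed to between 157.1 and 171.9 FPKM in controls and between 171.8 and 202.7 FPKM in treated libraries, while in HCT116 all 5 listed were under 1 FPKM. The 7 enteroendocrine markers summed to between 378.6 and 450.6 FPKM in NCI-H716 controls and between 497.3 and 615.5 FPKM in treated libraries, and the 11 epithelial markers to between 595.5 and 599.8 FPKM and then between 520.6 and 533.4 FPKM, neither overlapping between groups. In HCT116 the 2 enteroendocrine markers listed summed to between 8.26 and 8.65 FPKM in controls and between 5.42 and 7 FPKM in treated libraries, while the 4 epithelial ones overlapped. Leukocyte and endothelial lists summed to at most 1.77 FPKM in any library. The part of these markers in the results was not tested.

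The promoters of these genes are shown because many of them hold a motif that the choice of members did not use. RefSeq promoter sequences (GRCh38.p14, 250 bases before to 50 bases after a transcription start) were at hand for 45 of the 52 members. The letters CACGTG, which read the same on both strands, occurred in 21 of the 45, a share of 46.7%. Over all 27305 genes with such a window the share was 8.77%, and over the 10163 that were also tested in NCI-H716 it was 12.4%. Within 50 bases of the start the share was 42.2% of members against 5.25% of the tested genes. The motif is not particular to the members. On the wider list of biogenesis factors described below, 32 of the 125 with a window held it. That is 25.6%, and 20% held it within 50 bases of the start. Members had 1.22 windows per gene and the tested genes 1.45, so alternative starts did not give the members more room for a match. The 23 E-boxes lay between 241 bases upstream and 43 bases downstream of a start, and the median first base was at position 7. A second motif, CGCATGCG, the core of sites for the factor NRF1, occurred in 8.89% of members, 9.6% of the wider list and 4.66% of tested genes. Both motifs read the same on either strand, and neither contains the other. These shares are descriptions of letters in a window, and no binding was measured here.

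**Figure D1:**
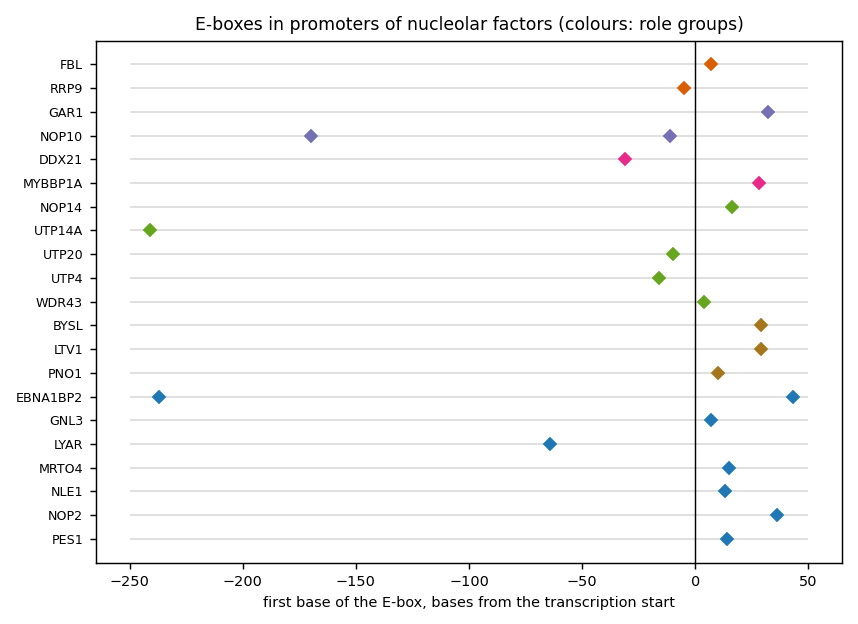
Each row is 1 of the 21 members with an E-box, coloured by role group, and each diamond is the first base of an E-box, plotted in bases from the transcription start (the vertical line at 0). Most diamonds sit close to the start, with 1 gene, UTP14A, whose only E-box lies 241 bases upstream. NOP10 has 2 E-boxes in the same window. The 2 of EBNA1BP2 lie in windows of different transcription starts, and each is plotted from its own start.

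The 5 promoters below belong to the members with the smallest p for a Z325 response in either line among those that hold an E-box. The E-box is in capitals and the rest in lower case, and all are written 5' to 3' along the gene's own strand. MRTO4 lies at chr1:19251555-19251854 on the plus strand, with its E-box at position 15 after the start. NOP2 lies at chr12:6568242-6568541 on the minus strand, with its E-box at position 36. RRP9 lies at chr3:51941855-51942154 on the minus strand, with its E-box 5 bases before the start. UTP4 lies at chr16:69132399-69132698 on the plus strand, with its E-box 16 bases before the start. PNO1 lies at chr2:68157638-68157937 on the plus strand, with its E-box at position 10.
MRTO4: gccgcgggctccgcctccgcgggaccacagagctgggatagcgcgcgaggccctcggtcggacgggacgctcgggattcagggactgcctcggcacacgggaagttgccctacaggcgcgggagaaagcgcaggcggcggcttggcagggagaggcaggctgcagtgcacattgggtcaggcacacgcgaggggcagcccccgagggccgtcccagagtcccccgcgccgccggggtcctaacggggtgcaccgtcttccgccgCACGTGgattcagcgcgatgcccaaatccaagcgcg
NOP2: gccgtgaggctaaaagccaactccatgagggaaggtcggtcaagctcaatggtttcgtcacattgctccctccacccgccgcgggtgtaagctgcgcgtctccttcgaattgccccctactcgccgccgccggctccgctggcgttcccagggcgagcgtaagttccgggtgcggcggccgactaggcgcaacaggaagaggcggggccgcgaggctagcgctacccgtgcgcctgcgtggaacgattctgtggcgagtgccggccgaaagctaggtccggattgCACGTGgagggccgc
RRP9: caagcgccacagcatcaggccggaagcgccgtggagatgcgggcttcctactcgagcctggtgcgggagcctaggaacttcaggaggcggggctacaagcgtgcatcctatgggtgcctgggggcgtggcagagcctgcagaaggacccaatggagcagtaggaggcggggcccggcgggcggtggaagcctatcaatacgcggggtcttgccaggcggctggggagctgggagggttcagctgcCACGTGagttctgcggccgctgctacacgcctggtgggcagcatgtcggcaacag
UTP4: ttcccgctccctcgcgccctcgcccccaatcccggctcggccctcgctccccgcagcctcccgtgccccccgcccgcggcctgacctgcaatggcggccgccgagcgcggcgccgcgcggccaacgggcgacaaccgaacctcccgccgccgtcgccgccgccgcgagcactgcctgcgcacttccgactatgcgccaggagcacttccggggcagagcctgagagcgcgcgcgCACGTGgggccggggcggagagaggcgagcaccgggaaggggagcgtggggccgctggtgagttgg
PNO1: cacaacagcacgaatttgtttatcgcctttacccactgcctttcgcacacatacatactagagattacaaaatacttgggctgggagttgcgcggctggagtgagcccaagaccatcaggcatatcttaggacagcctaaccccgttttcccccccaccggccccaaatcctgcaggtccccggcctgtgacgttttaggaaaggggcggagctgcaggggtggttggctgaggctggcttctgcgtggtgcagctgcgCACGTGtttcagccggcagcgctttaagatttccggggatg

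Levels of the members spanned a wide range in untreated cells. FPKM, which scales a count by gene length and library total, allows genes of different length to be compared within a line. In NCI-H716 controls the highest were NOP10, a small protein of box H/ACA snoRNPs, at 2658 ± 547 FPKM (SD, n = 2), and NPM1, the histone chaperone nucleophosmin, at 1815 ± 214 FPKM. FBL, the methyltransferase fibrillarin, followed at 616.5 ± 108 FPKM, NOP16, a 60S factor, at 573 ± 43.2 FPKM, and NHP2, another H/ACA protein, at 488.3 ± 119 FPKM. The spreads of those 3 overlap, so their order is not fixed by these data. The lowest was RRP1, a 60S processing factor, at 1.72 ± 0.163 FPKM. In HCT116, where FPKM was computed over the listed genes only and is not on the scale of NCI-H716, NPM1 led at 1240 ± 23.7 FPKM, ahead of NOP58 at 637.8 ± 13.6 and GNL3 at 627.1 ± 22.6, which do not differ beyond their spread. POLR1A was lowest at 1.35 ± 0.0213 FPKM. Over the 27 genes measured in both lines the control levels on a log2(FPKM + 1) scale correlated with Pearson's r = 0.891, given as a description across genes. RNA from NPM1 pseudogenes, whose reads cannot always be told from those of the gene, came to between 3.1% and 5.57% of the NPM1 count in HCT116, where 25 of 49 pseudogenes are listed, and between 1.44% and 2.07% in NCI-H716. For RRN3 the share from 5 pseudogenes was between 2.92% and 7.21% in NCI-H716. Exons shared with other genes make the counts of further members uncertain, among them LTV1 (27.6% of its exon bases), NOP16 (12.3%, with ARL10), PNO1 (8.94%), NOP58 (8.37%) and GRWD1 (5.06%, with KCNJ14).

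**Figure D2:**
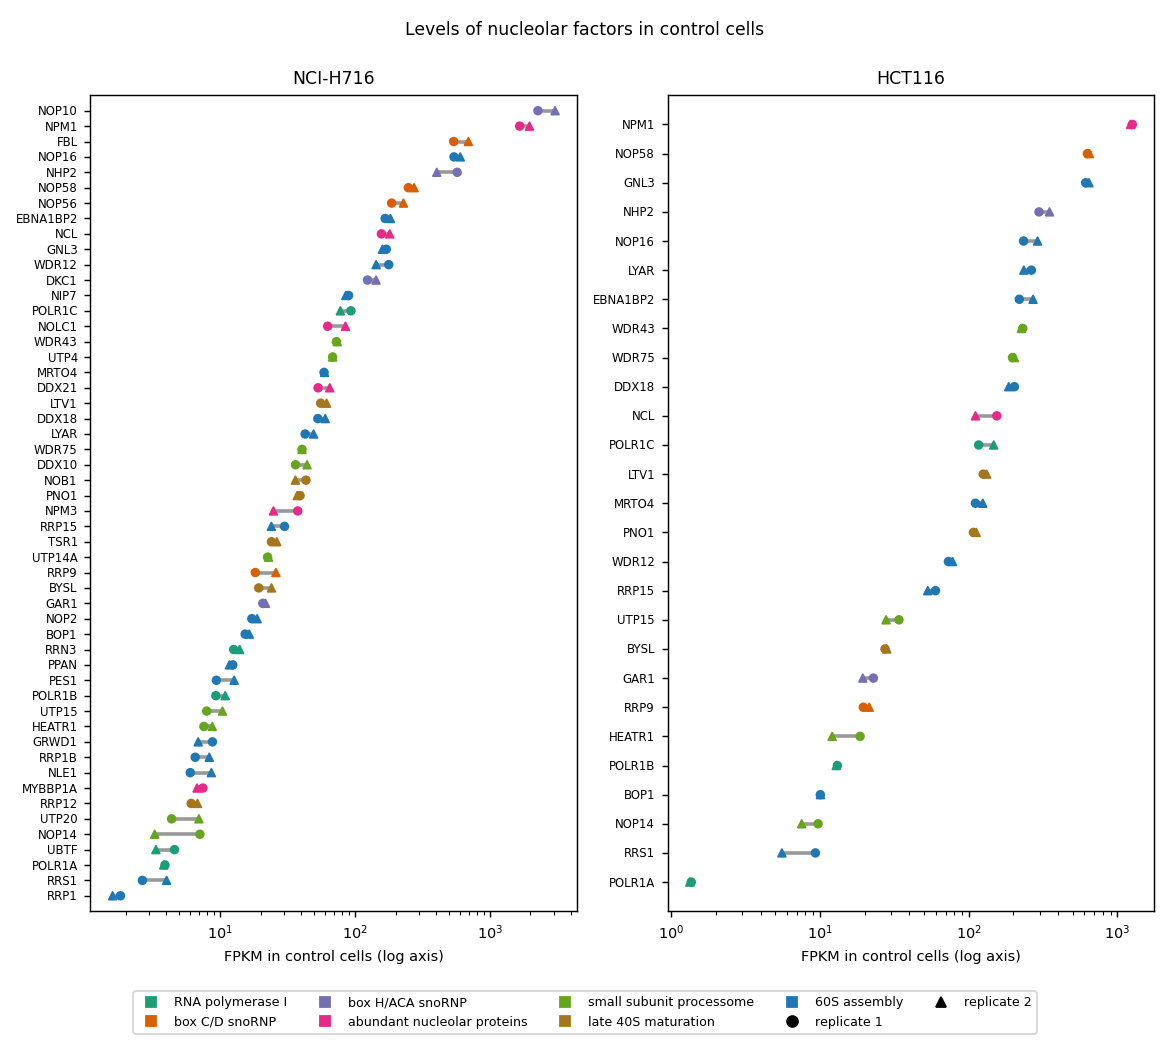
FPKM on a log axis of each member in control replicate 1 (circle) and replicate 2 (triangle), joined by a grey line and ordered by the mean, for NCI-H716 (52 genes, left) and HCT116 (27 genes, right). NOP10 and NPM1 lead in NCI-H716 and NPM1 leads in HCT116, and for most genes the 2 replicates lie close together.

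Together the 27 members took 2.52% and 2.51% of the HCT116 control counts and 2.21% and 2.1% of the Z325 counts, so both treated libraries were below both controls. NPM1 alone gave 139358 of the 336503 member counts in control replicate 1 and 114982 of 295875 in Z325 replicate 1. These shares therefore lean on 1 gene. In NCI-H716 all 52 members took 0.752% and 0.827% of the control counts and 0.75% and 0.856% of the Z325 counts, and the groups overlapped. Shares of a pool of cells cannot tell fewer cells with high levels from less RNA per cell.

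In HCT116 most members were lower after Z325. Differences are log2 fold changes of treated over control from edgeR's quasi-likelihood test, on counts scaled by library total and TMM factor (CPM in the values given), with Benjamini-Hochberg adjustment over the 6491 genes tested. Of 27 members 21 were lower and 6 higher, or 77.8% lower, against 51.8% of all genes tested and 56.7% of the protein-coding ones. The median was -0.26, against -0.03 for all genes and -0.09 for protein-coding genes. At an adjusted p under 0.05, 3 members fell, POLR1B, NCL and MRTO4, where 2.94% of all genes fell, and 0 rose, where 2.83% of all genes rose. At an unadjusted p under 0.05 the members' counts were 10 lower and 0 higher, with a background of 12.7% lower and 11.2% higher. For 17 members the treated libraries were both under the lower control (29% of all genes), for 2 both were over the higher one (24.8% of all genes), and 8 overlapped. DESeq2 put 5 members lower (6.67% of all genes) and 0 higher past the threshold, and limma on log2 FPKM values put 0 in either direction. Without control replicate 1 or 2, 0 members passed (0.417% and 0.0871% of all genes fell). Without Z325 replicate 1 it was 7 (7.8% of all genes fell), NPM1, NCL, NOP16, POLR1B, POLR1C, HEATR1 and MRTO4. Without the shallow Z325 replicate 2 it was 4 (7.92% of all genes fell), NCL, POLR1B, RRP9 and BOP1. The members' median moved with the treated library kept, to -0.35 without Z325 replicate 1 and to -0.15 without Z325 replicate 2.

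In NCI-H716 members were also more often lower than higher. Of 52 members 36 were lower and 16 higher, or 69.2% lower against 50.6% of the 14142 genes tested. The median was -0.11 against -0.01 for all genes. By the same test 1 member, NPM3, fell at an adjusted p under 0.05, where 0.099% of all genes fell, and 0 members rose, where 0.403% of all genes rose. Unadjusted, 9 members were lower at a p under 0.05 and 0 higher, with 9.27% and 7.59% of all genes as background. Both treated libraries were below both controls for 24 members (25.1% of all genes) and above for 6 (24.3% of all genes), with 22 overlapping. The count of members that fell was 0 without control replicate 1 (0.0469% of all genes), and 2, NPM3 and NHP2, without control replicate 2 (0.989%) or without Z325 replicate 2 (0.716%). Without Z325 replicate 1 it was 6 (5.91% of all genes), NPM3, NHP2, GRWD1, NOP2, UTP4 and PNO1. DESeq2 put 3 lower (1.41% of all genes) and limma on log2 FPKM values 0.

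**Figure D3:**
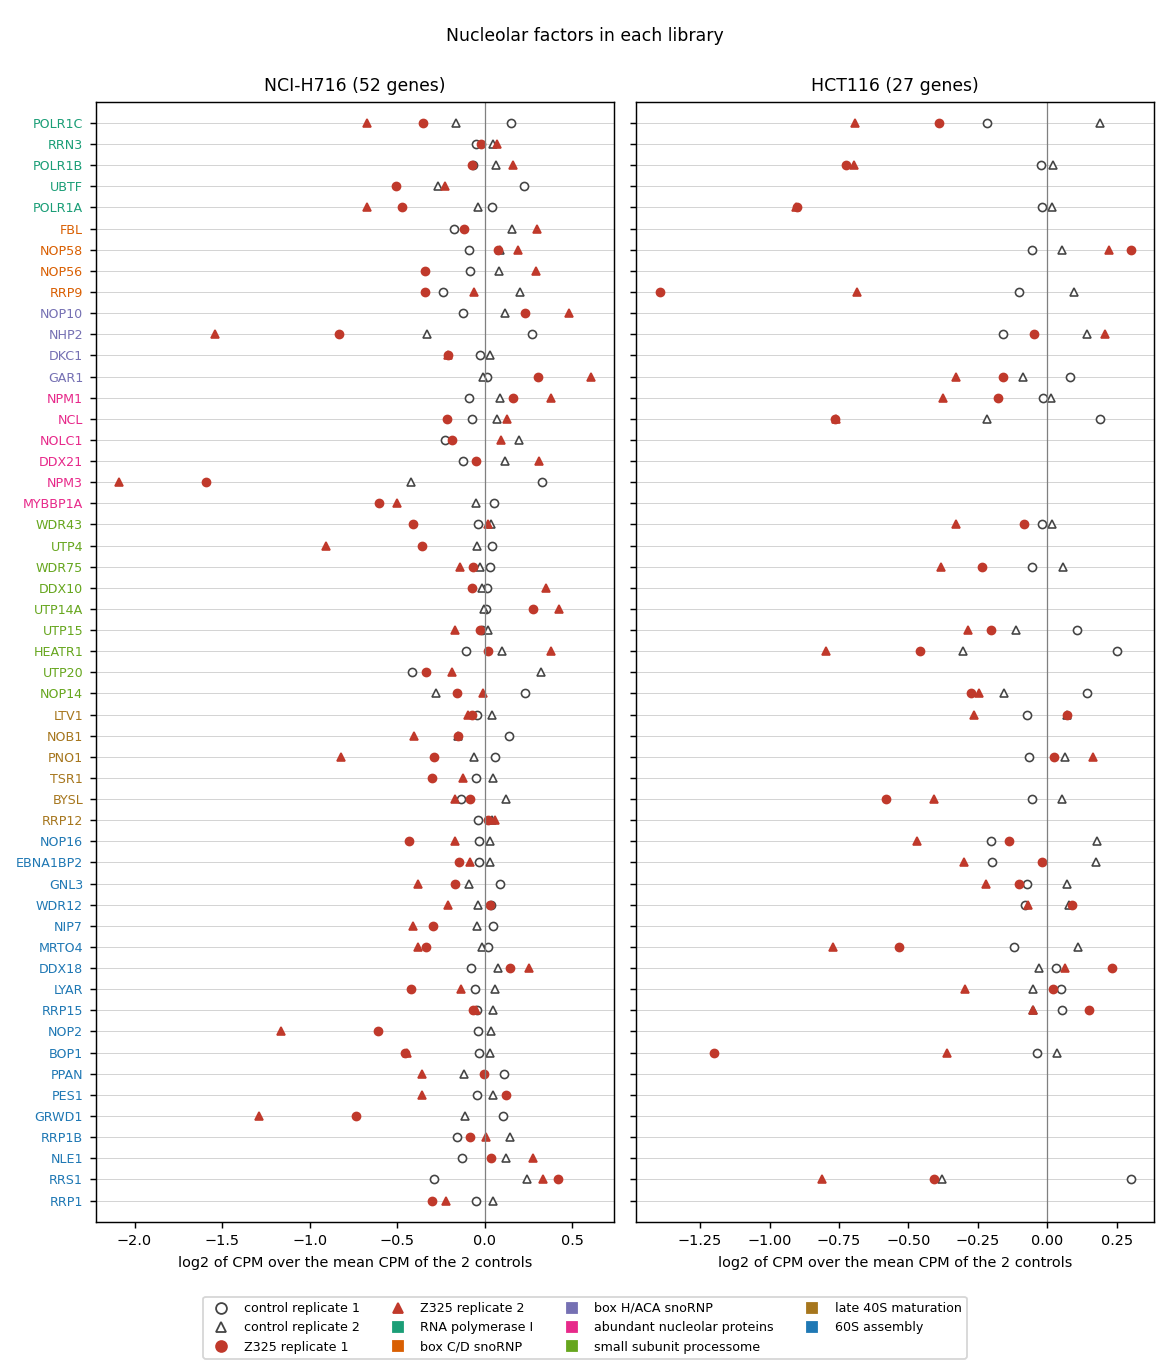
Each row is 1 member, named in the colour of its role group, and each point is the log2 of a library's CPM over the mean CPM of the 2 controls of that line (open: control, filled red: Z325; circle: replicate 1, triangle: replicate 2), with NCI-H716 on the left and HCT116 on the right. Filled points of NPM3 lie farthest left in NCI-H716, and in HCT116 those of RRP9, POLR1A, POLR1B and NCL lie left of both open points.

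The change followed the base composition of the genes in both lines. Across all genes with a known GC content the Spearman correlation of log2 fold change with GC was -0.284 in NCI-H716 and -0.249 in HCT116, and among members it was -0.389 and -0.487. The same kind of relation appeared between control libraries of one group (control 2 minus control 1, -0.288 in NCI-H716 and 0.249 in HCT116), where no treatment differs. Between the treated libraries (Z325 2 minus Z325 1) it was -0.181 in NCI-H716 and 0.0586 in HCT116. The fits were therefore repeated with an offset for GC, a choice made after seeing the data. With it, 33 of 52 members were lower in NCI-H716 (50.7% of all genes), with a median of -0.13 (all genes, -0.01). In HCT116 it was 23 of 27 (49.1% of all genes), with a median of -0.24 (all genes, 0.01). NPM3 still passed the adjusted threshold in NCI-H716, where 0.148% of all genes fell. NCL and POLR1B still passed it in HCT116, where 2.85% of all genes fell, and MRTO4 did not. How far GC accounts for any single gene was not tested.

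The RNA polymerase I group had the lowest median of any role group in HCT116 (log2 -0.71, over 3 genes). All 3 listed members had both treated libraries below both controls, as did 29% of all genes. Of 6 further polymerase I subunits and factors tested in HCT116, from the wider list described below, 3 were lower and 3 higher. The median of those 6 was -0.1. POLR1B, the second-largest subunit, stood at 113.8 and 117.2 CPM in controls and 69.9 and 71.3 CPM after Z325. The replicates of each group lie close together and the groups are well apart. The gene lies at chromosome 2, 112541915 to 112579818 on the plus strand, and fell by 0.71 on the log2 scale (SE 0.163, edgeR adjusted p = 0.0438), to 61.2% of control. Leaving out either control gave -0.74 and -0.7, neither past the threshold. With a GC offset the change was -0.71 (adjusted p = 0.0367). POLR1A, the largest, catalytic subunit, was at 26 and 26.6 CPM in controls and 14.1 and 14 CPM after Z325, a difference of -0.9 (SE 0.265, edgeR adjusted p = 0.0856). POLR1C, a subunit shared with RNA polymerase III, was at 619.4 and 820.1 CPM and then 549.2 and 445.8 CPM, a difference of -0.53 (SE 0.172, adjusted p = 0.108). Some of the exon bases of POLR1C are shared with XPO5 and other genes, so its count is uncertain.

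In NCI-H716 POLR1A and POLR1C had the same sign. POLR1A read 41.7 and 39.5 CPM in controls and 29.2 and 25.4 CPM after Z325, -0.57 (SE 0.191, edgeR adjusted p = 0.193). POLR1C read 100.5 and 80.8 CPM and then 70.9 and 56.8 CPM, -0.51 (SE 0.192, adjusted p = 0.235). Neither pair of groups overlaps, and neither gene passed the test. POLR1B was at 52.2 and 57.2 CPM in controls and 52 and 61.1 CPM after Z325, where the groups overlap (log2 0.05, SE 0.18). UBTF, which coats active ribosomal DNA, and RRN3, which brings the polymerase to its promoter, overlapped between groups too, with log2 values of -0.36 and 0.03.

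Among the abundant nucleolar proteins NCL fell in HCT116 and NPM3 in NCI-H716. NCL, nucleolin, binds the precursor RNA and its chromatin. It stood at 1329 and 1002 CPM in HCT116 controls and at 685.3 and 687.6 CPM after Z325. The gap between the 2 controls is about as wide as that between the lower control and the treated libraries, which are alike. Its log2 fold change was -0.76 (SE 0.155, edgeR adjusted p = 0.0294), or 58.9% of control, at chromosome 2, 231453531 to 231483641 on the minus strand. Without control replicate 1 it was -0.55 and without control replicate 2 it was -0.96, neither past the threshold. NCL hosts small nucleolar RNAs, and 1.54% of its exon bases are shared with SNORA75. In NCI-H716 NCL was at 373.3 and 412.9 CPM in controls and 337.9 and 429 CPM after Z325, which overlap (log2 -0.04, SE 0.172).

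NPM3, a relative of nucleophosmin in the nucleoplasmin family of histone chaperones, is measured in NCI-H716 only. The controls read 25.4 and 15.1 CPM and the Z325-treated groups 6.72 and 4.78 CPM. Both treated values are under the lower control. It fell by 1.83 on the log2 scale (SE 0.315, edgeR adjusted p = 0.0326), to 28.3% of control, the largest difference of any member in either line. The gene lies at chromosome 10, 101781325 to 101783446 on the minus strand, and shares no exon bases with another gene. Without control replicate 1 the difference was -1.4 and no longer passed. With a GC offset it was -1.68 (adjusted p = 0.0253).

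NPM1 had opposite signs in the 2 lines. In HCT116 it was at 10080 and 10280 CPM in controls and 8992 and 7838 CPM after Z325 (log2 -0.28, SE 0.134, edgeR adjusted p = 0.256). In NCI-H716 it was at 1827 and 2061 CPM and then 2173 and 2530 CPM (log2 0.28, SE 0.163, edgeR adjusted p = 0.422). The groups do not overlap in either line, and neither difference passed. Of the other 3, MYBBP1A, a MYB-binding repressor found in nucleoli, was at 11.7 and 10.9 CPM and then 7.41 and 7.94 CPM (log2 -0.55, edgeR adjusted p = 0.308), while NOLC1 and DDX21 overlapped between groups.

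Box C/D snoRNPs guide 2'-O-methylation. RRP9 belongs to the U3 particle, which takes part in cutting the precursor. Its HCT116 controls read 29.1 and 33.4 CPM and its treated libraries 11.9 and 19.5 CPM. The groups are apart, but the 2 treated libraries are not alike. The difference, -1.03 (SE 0.311, edgeR adjusted p = 0.0912), was the largest of any member in HCT116 and did not pass, though it was -1.37 and passed without Z325 replicate 2. RRP9 is rich in GC at 60.7%, and with the GC offset the value was -0.69 (adjusted p = 0.206). In NCI-H716 RRP9 overlapped between groups (log2 -0.19). NOP58, a core protein of the particle, was among the few members higher in HCT116, at 1984 and 2143 CPM in controls and 2540 and 2408 CPM after Z325 (log2 0.26, SE 0.123, edgeR adjusted p = 0.239). FBL, NOP56 and NOP58 all overlapped between the NCI-H716 groups, with log2 values of 0.11, 0.01 and 0.14. FBL, the most abundant of the group there, read 256.2 and 322.8 CPM in controls and 267 and 355.6 CPM after Z325.

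The 4 proteins of the box H/ACA snoRNPs, which guide pseudouridylation, differed in sign in NCI-H716. NHP2 read 310.2 and 204.6 CPM in controls and 144.3 and 88.4 CPM after Z325. Treated values are lower, and the spread within each group is wide. The difference was -1.15 (SE 0.258, edgeR adjusted p = 0.096), second only to NPM3, and it passed in 3 of the 4 fits with 1 library left out, at -1.4 without control replicate 2, -1.53 without Z325 replicate 1 and -0.82 without Z325 replicate 2. NOP10 read 639.9 and 758 CPM and then 819.5 and 976.5 CPM (log2 0.36, SE 0.169, adjusted p = 0.308). GAR1 read 16.4 and 16.2 CPM and then 20.2 and 24.8 CPM (log2 0.46, SE 0.22, adjusted p = 0.314), and for both all treated values are above all controls. DKC1, the pseudouridine synthase, had treated values of 184.9 and 184.5 CPM under controls of 209.8 and 217.8 CPM (log2 -0.21, adjusted p = 0.515). In HCT116 NHP2 was at 422.8 and 521.3 CPM and then 456.1 and 544.9 CPM, which overlap (log2 0.08, SE 0.154). Exons of NHP2 share 28.1% of their bases with RMND5B on the other strand, and whether strand was used in counting is not given in the sources used here, so the NHP2 values are uncertain.

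All 5 listed proteins of the small subunit processome had both treated libraries below both controls in HCT116, where 29% of all genes did. Their log2 values ran from -0.61 to -0.2, and 0 passed the adjusted threshold. Of 17 other small subunit factors tested in HCT116, from the wider list described below, 11 were lower and 6 higher. Both treated libraries were below both controls for 7 of those 17 and above for 5, with a median of -0.19. HEATR1, a large scaffold that also acts in polymerase I transcription, read 162.8 and 110.8 CPM in controls and 99.6 and 78.8 CPM after Z325 (log2 -0.61, SE 0.221, edgeR adjusted p = 0.14). The controls differ widely, and 23.1% of HEATR1 exon bases are shared with LGALS8 on the other strand. WDR75 read 957.8 and 1035 CPM and then 845.4 and 764.9 CPM (log2 -0.31, SE 0.126, adjusted p = 0.188). WDR43 read 914.1 and 936.8 CPM and then 874.1 and 737.7 CPM (log2 -0.2, adjusted p = 0.41). In NCI-H716, 6 of 9 were lower and 3 had both treated libraries below both controls, a share near the 25.1% of all genes. UTP4, of the subcomplex that binds the precursor early, read 134.3 and 126.6 CPM and then 101.6 and 69.6 CPM (log2 -0.61, SE 0.201, edgeR adjusted p = 0.191). WDR43, the most abundant of the group in NCI-H716, read 188.8 and 198.6 CPM and then 145.6 and 196.1 CPM, where the groups overlap. UTP14A read 51.3 and 50.9 CPM and then 61.9 and 68.5 CPM, the only one of the group with both treated libraries above both controls (log2 0.35, adjusted p = 0.328).

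Late maturation of the 40S subunit involves the nuclease NOB1 and its partner PNO1. In NCI-H716 PNO1 read 80 and 73.4 CPM in controls and 62.6 and 43.4 CPM after Z325 (log2 -0.54, SE 0.206, edgeR adjusted p = 0.239). In HCT116 it read 272.9 and 298.7 CPM and then 290.4 and 320 CPM (log2 0.09, SE 0.132). The groups are apart in NCI-H716 and overlap in HCT116. BYSL, needed for 40S export, read 51.2 and 55.1 CPM in HCT116 controls and 35.6 and 40.1 CPM after Z325 (log2 -0.5, SE 0.21, adjusted p = 0.197). At a GC content of 56.7% its value with the GC offset was -0.19. LTV1, the most abundant of the group in NCI-H716, read 91.8 and 97.4 CPM and then 89.7 and 88.6 CPM (log2 -0.09, adjusted p = 0.833). NOB1 and TSR1 also had both treated libraries below both controls in NCI-H716, with log2 values of -0.28 and -0.21.

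The 60S assembly factors form the largest role group. In NCI-H716, 15 of 18 were lower, 11 had both treated libraries below both controls (25.1% of all genes), and 0 passed the adjusted threshold, with a median of -0.22. In HCT116, 7 of 10 were lower, 4 had both treated libraries below both controls (29% of all genes), and 1 fell. That gene, MRTO4, a homologue of the ribosomal stalk protein P0 that holds its place during assembly, read 273.7 and 321.4 CPM in controls and 205.4 and 174.2 CPM after Z325. The groups are apart by more than the gap within either of them. The log2 fold change was -0.65 (SE 0.151, edgeR adjusted p = 0.046), or 63.8% of control, at chromosome 1, 19251805 to 19260128 on the plus strand, where its E-box-bearing promoter is printed above. Without control replicate 1 it was -0.76, without control replicate 2 it was -0.53 and without Z325 replicate 2 it was -0.51, none past the threshold, and with the GC offset it was -0.47 (adjusted p = 0.0976). In NCI-H716 MRTO4 read 105.4 and 103.1 CPM and then 82.7 and 79.9 CPM, -0.36 (SE 0.162, adjusted p = 0.297), again with no overlap.

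BOP1, of the PeBoW complex with PES1 and WDR12, had the highest GC content of all members, 65.6%. It read 37.3 and 39.2 CPM in HCT116 controls and 16.7 and 29.8 CPM after Z325 (log2 -0.75, SE 0.308, edgeR adjusted p = 0.187). The 2 treated libraries differ, and the value was -1.17 and past the threshold without Z325 replicate 2 and -0.38 without Z325 replicate 1. In NCI-H716 it read 33.9 and 35.4 CPM and then 25.2 and 25.4 CPM (log2 -0.45, SE 0.19, adjusted p = 0.272). The treated libraries were lower in both lines, and the GC offset brought the values to -0.4 and -0.17. Its partner WDR12 overlapped between groups in both lines, and PES1 did in NCI-H716.

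GRWD1 and NOP2 came next after NPM3 and NHP2 in size of difference in NCI-H716. GRWD1, a WD-repeat protein of 60S assembly, read 40.6 and 34.8 CPM in controls and 22.7 and 15.4 CPM after Z325 (log2 -0.99, SE 0.234, edgeR adjusted p = 0.11). NOP2, a methyltransferase of the large rRNA, read 38.5 and 40.6 CPM and then 26 and 17.7 CPM (log2 -0.86, SE 0.226, adjusted p = 0.128). Both genes had treated libraries far under controls, at 50.5% and 55.1% of control, and neither passed. More than any other member, NOP2 shares its exons, with 54.4% of their bases in an unnamed protein-coding gene on the same strand, so its count is uncertain. NOP16, the most abundant of the group in NCI-H716, read 361.3 and 376.8 CPM and then 273.5 and 327.9 CPM (log2 -0.3, SE 0.162, adjusted p = 0.383). DDX18, an RNA helicase, was the one member with both treated libraries above both controls in each line, at 187.1 and 207.5 CPM and then 218.2 and 235.2 CPM in NCI-H716 and at 1528 and 1467 CPM and then 1760 and 1563 CPM in HCT116. Its log2 values were 0.2 and 0.15, and neither passed.

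The responses of the 27 factors measured in both lines were set side by side. Of these, 18 had the same sign in both, or 66.7%, against 57.4% of the 5014 genes tested in both. The 27 were mostly lower in each line (77.8% in HCT116 and 74.1% in NCI-H716), so many shared signs arise even where responses are unrelated. The correlation of the log2 fold changes across the 27 genes was 0.02 (Pearson) and 0.09 (Spearman), against 0.22 and 0.23 over the 5014 genes. Each line had its own controls, so the comparisons share no library. In the test of the difference itself, the interaction of treatment and line in edgeR over 7642 genes, 0 members passed an adjusted p under 0.05, where 0.0654% of all genes passed. At an unadjusted p under 0.05 there were 7 members, NHP2, POLR1B, NCL, NPM1, HEATR1, PNO1 and RRP9, where 14.3% of all genes passed. NHP2 had the smallest p, with a difference of -1.25 (NCI-H716 change minus HCT116 change, SE 0.352, adjusted p = 0.186). DESeq2 put 1 member, NHP2, past the threshold, where 0.96% of all genes passed with a negative difference. POLR1B was next at 0.75 (SE 0.236, adjusted p = 0.21), ahead of NCL at 0.72 (SE 0.247, adjusted p = 0.235) and NPM1 at 0.54 (SE 0.202, adjusted p = 0.261). POLR1A, POLR1C, MRTO4 and BOP1 were lower in both lines, and their responses were not told apart, with differences of 0.31 (SE 0.296), 0.01 (SE 0.279), 0.27 (SE 0.222) and 0.3 (SE 0.363).

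**Figure D4:**
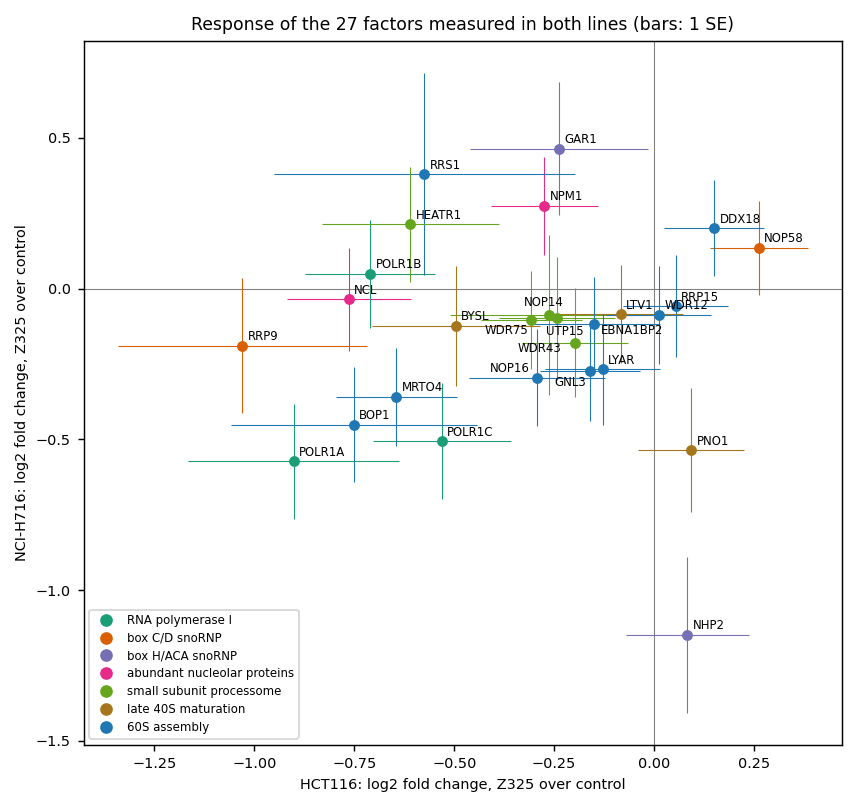
Each point is 1 of the 27 members measured in both lines, with its log2 fold change (Z325 over control) in HCT116 on the horizontal axis and in NCI-H716 on the vertical axis, bars of 1 SE and colours for role groups. POLR1A, POLR1C, MRTO4 and BOP1 lie in the lower left, NHP2 lies low on the NCI-H716 axis and near 0 on the other, and NCL, POLR1B and RRP9 lie left on the HCT116 axis and near 0 on the other.

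Members with and without an E-box are set side by side here. In NCI-H716 the median log2 fold change was -0.12 over the 21 members with an E-box and -0.19 over the 24 without one. Of them 15 and 18 were lower, where 50.6% of all genes were. In HCT116 the medians were -0.2 over 11 members and -0.3 over 12, and 10 and 9 were lower (51.8% of all genes). These are counts without a test. The level of a member in control cells, as log2(FPKM + 1), ran with its change in HCT116, where genes with less RNA tended to be lower after Z325 (Pearson's r = 0.603, Spearman's rho = 0.533 over 27 genes). In NCI-H716 the values were 0.09 and 0.06 over 52 genes. Both are descriptions across genes, which share libraries, and neither was computed over all genes. Among the same 27 genes the change in HCT116 also ran with GC content (Spearman's rho = -0.487). Whether level and GC act apart was not tested.

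Other genes of the pathway, 148 factors on a list written from general knowledge, were counted in the same fits. In HCT116, 61 of the 66 listed were tested. Of those 37 were lower, or 60.7%, against 51.8% of all genes and 56.7% of the protein-coding ones. The median was -0.17, against -0.03 for all genes and -0.09 for protein-coding genes. On this list 3 fell and 2 rose at an adjusted p under 0.05, with 2.94% and 2.83% of all genes as background. Both treated libraries were below both controls for 28 and above for 14, against 29% and 24.8% of all genes. DDX56, a helicase of 60S assembly, stood at 316.5 and 414.4 CPM in controls and 132.6 and 171.6 CPM after Z325 (log2 -1.27, SE 0.185, edgeR adjusted p = 0.0106). NOL10, a small subunit factor, was at 216.5 and 198.8 CPM and then 134.7 and 114.3 CPM (log2 -0.73, adjusted p = 0.0302), and NOL9, a kinase acting in the processing of the spacer RNA, at 52.1 and 52.5 CPM and then 26.3 and 29.2 CPM (log2 -0.92, adjusted p = 0.0473). The 2 that rose were TMA16, a 60S factor, with 629.3 and 646.1 CPM and then 922.3 and 960.9 CPM (log2 0.56, adjusted p = 0.0355), and UTP11, of the small subunit processome, with 1675 and 1716 CPM and then 2582 and 2312 CPM (log2 0.53, adjusted p = 0.0478). Treated and control libraries are apart for all 5. With the GC offset TMA16 (log2 0.39) and NOL9 (log2 -0.81) no longer passed. Leaving out 1 library moved the number past the threshold along with the share of all genes past it, so no count is read from those fits. Without Z325 replicate 2 the median was -0.06.

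In NCI-H716, 145 of the 148 were tested and 86 were lower, or 59.3%, against 50.6% of all genes. The median was -0.09, against -0.01 for all genes. None passed the adjusted threshold by edgeR, 24 were lower and 7 higher at an unadjusted p under 0.05 (9.27% and 7.59% of all genes), and DESeq2 put 4 lower and 1 higher past the adjusted threshold. Treated libraries were below both controls for 51 and above for 22 (25.1% and 24.3% of all genes). DDX56 had the sign it had in HCT116, with 124 and 102.8 CPM in controls and 77.3 and 81 CPM after Z325 (log2 -0.52, SE 0.172, edgeR adjusted p = 0.193). By role, the median in NCI-H716 was -0.31 for 9 snoRNP assembly factors, -0.18 for 16 further polymerase I subunits and factors, -0.18 for 26 exosome components and nucleases, -0.07 for 44 small subunit factors and 0 for 50 factors of the 60S subunit. The 18 members in 60S assembly had a median of -0.22 in the same line, and the 2 lists were not compared by a test. With 1 library left out, the number past the threshold on this list moved with the share of all genes past it, so no count is read from those fits.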

How the data were processed

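RNA-seq libraries of HCT116 and NCI-H716 cells, 2 control and 2 Z325 each, were grouped by their sample names. For HCT116 the deposited table holds read counts per gene with exon lengths, laid out as featureCounts writes them. For NCI-H716 the deposited tables hold RSEM expected counts, TPM and FPKM, 1 per library. The study's methods name SMART-Seq2 libraries, TrimGalore, STAR, GRCh38 and RSEM, while the submitters' processing notes name Bowtie2 2.5.0, featureCounts and hg38. Which of these made the HCT116 counts, and how multi-mapping reads and strand were treated, is not given in the sources used here. Full-length libraries of about 100 cells carry amplification without molecular identifiers, so counting error understates the noise.

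The HCT116 table ends after chromosome 8 and the start of the next, and 4 broken lines were left out. Symbols came from the tables or from GENCODE release 44 (62666 of 63241 identifiers in NCI-H716). Expected counts were rounded. Genes were filtered with filterByExpr, scaled by TMM and tested with edgeR 4.0.16 (quasi-likelihood test, R 4.3.3), control against Z325 within each line and the interaction over all 8 libraries, with Benjamini-Hochberg adjustment over all genes tested and a threshold of 0.05. No comparison of 2 against 2 libraries can go below an exact permutation p of 0.333 for a single value, so only the fits across genes were used. HCT116 FPKM was computed from the counts, the exon lengths and the totals of listed genes. On simulated counts with 200 genes changed 4-fold, the test recovered 171 in HCT116 (9 false calls among 6491 genes) and 186 in NCI-H716 (10 among 14142). For the interaction it recovered 66 (4 false calls among 7642). The simulated counts used the same dispersion for every gene, and a 4-fold change is larger than that of any member. Recovery of changes of the size seen in the members was therefore not tried. Alternatives were DESeq2 1.42.0, library size scaling, other filters, limma 3.58.1 on log2(FPKM + 1), log2(FPKM + 0.1) and log2(TPM + 1), a replicate block, leaving out each library, and a GC offset added after seeing the data.

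Named with full values were members at an adjusted p under 0.05, the 10 of smallest p in each line and the most abundant of each role group. DKC1, MYBBP1A, NOP58 in HCT116, GAR1, UTP14A and DDX18 were named after their values were seen. The members and lists were chosen with earlier results of these data known. Exon overlap between genes was read from the GENCODE annotation and promoters from RefSeq.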

Additional observations from a re-analysis of the deposited data

How the results depend on the processing

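No result past its threshold changed sign under any alternative run. In HCT116 3 members were lower at an adjusted p under 0.05 as reported (2.94% of all genes). The number was 5 with DESeq2 (6.67%), 5 with a minimum of 10 counts in every library (7.06%) and 6 with no filter (2.85%). It was 0 with limma on log2(FPKM + 1), log2(FPKM + 0.1) or log2(TPM + 1), where 0.277%, 0.231% and 0.339% of all genes fell. The median ran from -0.35 to -0.15 with 1 library left out. In NCI-H716 1 member was lower as reported (0.099% of all genes), 3 with DESeq2 (1.41%) and 4 with no filter (1.52%). The number was 0 with each form of limma, where 0.00707% of all genes fell. It was also 0 (0.11% of all genes) when only genes of the HCT116 table were fitted. That fit cannot hold NPM3, the 1 member reported, which the HCT116 table does not list. The median was -0.16 on log2(TPM + 1). For the difference between the lines DESeq2 called 1 member against 0, where it called 0.96% of all genes with a negative difference and 0.733% with a positive one. On the wider list in HCT116, 3 were lower and 2 higher as reported (2.94% and 2.83% of all genes). DESeq2 gave 7 and 5 (6.67% and 6.61%). A minimum of 10 counts gave 7 lower (7.06%), and no filter 7 and 0 (2.85% and 1.75%). Each form of limma gave 0 and 0, where at most 0.339% of all genes fell and 0.447% rose. The GC offset gave 1 higher (3.03%). Leaving out 1 library gave 0 to 8 lower and 0 to 6 higher. In those fits 0.0871% to 7.92% of all genes fell and 0.216% to 7.25% rose. The counts moved with these shares, so none is read as a result. The median was -0.26 on log2(TPM + 1) and -0.222 to -0.059 with 1 library left out. On the wider list in NCI-H716 (0 and 0) DESeq2 gave 4 and 1 (1.41% and 1.49% of all genes), and no filter 7 and 1 (1.52% and 0.907%). Its median was -0.15 on log2(TPM + 1) and -0.024 with only genes of the HCT116 table. Apart from the fit that lacks NPM3, the causes of these differences were not tested. Where 1 library is left out, the lone library of its group is taken to vary like the others.

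Replicate numbers are shared between groups, but nothing in the labels says that they mark a shared culture or day, and the deviations of same-numbered libraries correlated at -0.022 in HCT116 and 0.286 in NCI-H716, with only 2 pairs a line. With the replicate block the members' count in NCI-H716 was 11 lower and 1 higher, where 9.45% and 7.5% of all genes were called. With a GC offset and the block it was 9 lower, against 7.3%. In HCT116 it was 2 lower with the block (3.14% of all genes). For the difference between the lines the block gave 1 member, where 0.0523% of all genes were called with a negative difference and 0.105% with a positive one. On the wider list the block gave 23 lower and 9 higher in NCI-H716, where 9.45% and 7.5% of all genes were called. The GC offset and the block gave 18 and 4 there (7.3% and 5.17%). In HCT116 the block gave 0 higher, without or with the GC offset (2.73% and 4.64% of all genes).

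Z325 replicate 2 of HCT116 held only 3434620 counts, which widens the error of its low values. The GC content of transcripts ran with differences between the 2 controls of each line and between the treated libraries of NCI-H716, and hardly between those of HCT116 (0.0586), so small differences of single GC-rich members cannot be told from it. With 2 libraries a group, a missed threshold does not show that a member kept its level.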
